A study of Mus musculus with 22 samples.

Results

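The 8 genes described here, Saa1, Saa2, Saa3, Lcn2, Hp, Steap4, Slpi and Ptx3, encode acute-phase proteins and proteins that handle iron, iron-carrying siderophores or proteases during infection. They are 8 of 22383 genes tested on the arrays, and each is read by 1 probe that passed the filter on dim probes. The set was chosen from measured values of these arrays, namely because Saa2, Lcn2 and Steap4 were much lower in LPS-treated macrophages without MK2 and MK3. Differences between LPS-treated genotypes are therefore given for these genes as a description, with no test.

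Transcript levels came from arrays of bone marrow-derived macrophages (BMDM), which were grown with the growth factor M-CSF from the femurs of male C57BL/6 mice of 3 genotypes. Wild-type (wt) mice were 12 to 13 weeks old, mice lacking the kinase MK2 (MK2-/-) 10 to 13 weeks, and mice lacking MK2 and its relative MK3 (MK2/3-/-) 11 to 14 weeks. Cells received lipopolysaccharide (LPS, from the outer membrane of Gram-negative bacteria) at 100 ng/ml or medium alone for 360 min. The 22 one-colour arrays comprised 3 LPS-treated and 4 medium-treated wt samples, 4 and 4 MK2-/- samples, and 4 and 3 MK2/3-/- samples. Deletion of the kinases was present throughout the animal, no sample lacked MK3 alone, and the replicates came from independent experiments per the methods. Whether each array came from a separate animal is not given in the sources used here, and p-values measure the spread between these samples. All arrays of a genotype shared 1 slide, so any direct comparison of genotypes also compares slides, and the contributions cannot be told apart. Values are log2 processed signals after quantile normalisation, called the log2 signal below.

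Serum amyloid A proteins, haptoglobin and lipocalin 2 belong to the acute-phase response, in which interleukin-6 and interleukin-1 raise their production, chiefly in the liver, through STAT3, NF-κB and C/EBP transcription factors. Macrophages activated through Toll-like receptors also transcribe several of these genes. Their proteins bind lipids and haemoglobin, withhold iron from bacteria, inhibit proteases or mark microbes for uptake.

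The macrophage markers were present, with 7 of 8 listed genes tested and each of these well above background on all 22 arrays (among them Adgre1, Csf1r, Itgam, Fcgr1, Mertk and Lyz2). Of 4 hepatocyte markers, the defining genes Alb and Ttr were each well above background on 1 array, Apoa1 on 3 and Apob on all 22. Mapkapk2, which encodes MK2, ranged from 14.28 to 15.33 in LPS-treated wt arrays and from 10.86 to 11.95 in LPS-treated arrays of both knockouts. Mapkapk3, which encodes MK3, was between 7.65 and 8.55 in LPS-treated MK2/3-/- arrays and between 11.92 and 12.57 in the other LPS-treated arrays. In medium both genes were also lower where their kinase was deleted, and whether the probes lie in the deleted parts is not given in the sources used here. Between 61.1% and 82.7% of probes were well above background per array and no spot was saturated. Medium-treated wt replicate 4 stood apart. Of 1012 genes that rose over 4-fold with LPS in wt BMDM, 542 (53.6%) had their highest medium-treated wt value on that array. LPS-treated MK2-/- replicate 3 had 2927 spots marked as outliers, compared with 115 to 261 on the other arrays.

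In wt BMDM 7 of the 8 genes rose upon LPS treatment, compared with 18.6% of all genes tested that rose. In MK2-/- BMDM 7 of 8 rose (17.5% of all genes) and in MK2/3-/- BMDM 6 of 8 (20.2% of all genes). Their median log2 response was 6.06 in wt, 5.90 in MK2-/- and 3.64 in MK2/3-/- BMDM, where the median of all genes lay between -0.04 and 0.01. With genes not well above background on any medium-treated array of a genotype set at their lower bound (1, 3 and 2 genes), these medians were 5.85, 5.29 and 3.07. Saa2 in wt and Ptx3 in wt and MK2/3-/- BMDM kept their measured values, which rest in part on arrays near the floor. The medians are thus not bounded alike in the genotypes. These tests share their LPS-treated arrays with the comparison that chose the genes. After LPS, all 8 genes had a lower mean signal in MK2/3-/- than in wt BMDM, by a median of -1.92 on the log2 scale, and the difference of MK2-/- from wt had a median of -0.54. In bulk RNA, fewer expressing cells and less RNA per cell cannot be told apart.

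**Figure D1:**
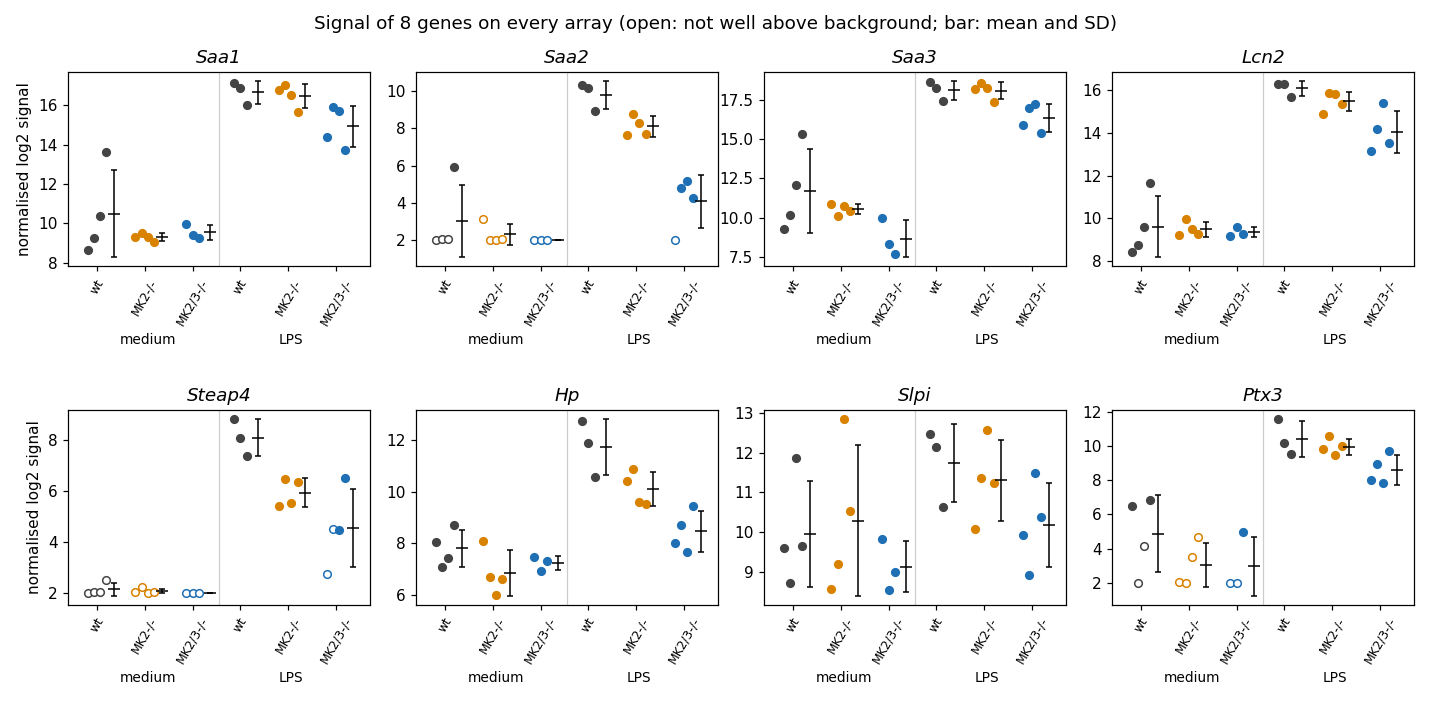
Log2 signal (vertical axis) of the 8 genes on each of the 22 arrays, grouped by genotype and treatment, with open circles for arrays on which the probe was not well above background and bars for the mean and SD of each group. Saa2 and Steap4 were mostly not well above background in medium. After LPS the 3 genotypes were separated for Saa2, both knockouts lay below wt but overlapped for Steap4, and LPS-treated and medium-treated values of Slpi overlapped within each genotype.

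Serum amyloid A genes lie next to each other on chromosome 7 in the order Saa3, Saa4, Saa1, Saa2 in the RefSeq annotation of the assembly GRCm38.p6. Saa1 and Saa2 encode the main acute-phase isoforms carried by high-density lipoprotein, and Saa3 an isoform made outside the liver, including in macrophages. The names Saa1 and Saa2 were exchanged in older annotations (each is listed as a synonym of the other), so they are identified here by accession, NM_009117 for Saa1 and NM_011314 for Saa2. The probe sequences were not used here, and cross-hybridisation between these near-identical genes was not tested. Their promoters, 250 bases before to 50 bases after the start, are shown because both genes share nearly the same sequence but were not equally low in the knockouts. Aligned end to end, the windows were identical at 287 of 301 columns (95.3%). Saa1 lies on the minus strand at chr7:46742931-46743230 and Saa2 on the plus strand at chr7:46751583-46751882 (RefSeq, GRCm38.p6), both printed 5′ to 3′ along the gene, with a match to the C/EBP motif TTGCNNAA in capitals.
Saa1: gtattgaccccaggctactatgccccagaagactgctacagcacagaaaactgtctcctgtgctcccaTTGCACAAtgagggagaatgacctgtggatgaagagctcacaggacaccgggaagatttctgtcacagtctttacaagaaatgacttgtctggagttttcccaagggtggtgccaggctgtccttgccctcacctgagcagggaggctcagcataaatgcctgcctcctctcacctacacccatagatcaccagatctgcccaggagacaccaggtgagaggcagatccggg
Saa2: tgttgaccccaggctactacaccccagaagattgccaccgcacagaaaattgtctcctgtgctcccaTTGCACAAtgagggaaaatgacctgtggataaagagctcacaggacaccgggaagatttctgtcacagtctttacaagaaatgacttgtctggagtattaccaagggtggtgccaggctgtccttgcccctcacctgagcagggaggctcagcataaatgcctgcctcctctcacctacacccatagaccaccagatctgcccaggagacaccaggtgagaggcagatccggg

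The log2 signal of Saa1 was 17.10, 16.87 and 16.00 in LPS-treated wt arrays, and 8.64, 9.29, 10.40 and 13.63 in medium, the last being replicate 4. In MK2-/- BMDM it was 16.75, 17.04, 16.50 and 15.62 after LPS and between 9.06 and 9.53 in medium. In MK2/3-/- BMDM it was 14.39, 15.89, 15.68 and 13.71 after LPS and between 9.26 and 9.99 in medium. Every LPS-treated array lay above every medium-treated array of its genotype, and every LPS-treated MK2/3-/- array lay below every LPS-treated wt array, while MK2-/- and wt overlapped. The LPS response was 6.17 on the log2 scale in wt (SE 0.80, limma adjusted p 5.20e-06), 7.18 in MK2-/- (SE 0.74, adjusted p 1.65e-07) and 5.37 in MK2/3-/- BMDM (SE 0.80, adjusted p 1.59e-05). Without medium-treated wt replicate 4 the response in wt was 7.21, and without replicate 1 of that group it was 5.55. After LPS, Saa1 differed from wt by -0.18 (SE 0.80) in MK2-/- and by -1.74 (SE 0.80) in MK2/3-/- BMDM.

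Saa2 was well above background on 1 of 11 medium-treated arrays, medium-treated wt replicate 4, at 5.90. After LPS its log2 signal was 10.33, 10.16 and 8.92 in wt, 7.63, 8.79, 8.32 and 7.71 in MK2-/-, and 1.99, 4.81, 5.18 and 4.26 in MK2/3-/- BMDM, the first of these not well above background. The 3 genotypes did not overlap after LPS. Saa2 had the largest difference of the 8 genes between LPS-treated MK2/3-/- and wt BMDM, -5.74 on the log2 scale (SE 0.81, 53.5-fold), compared with -1.69 (SE 0.81, 3.24-fold) between MK2-/- and wt. The difference of MK2/3-/- from MK2-/- BMDM was -4.05 (SE 0.75). With normexp background correction, which compresses low signals, the difference of MK2/3-/- from wt was -3.44 and that from MK2-/- was -1.97. Without LPS-treated MK2/3-/- replicate 1 they were -5.05 and -3.36.

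The LPS response of Saa2 was 6.82 in wt (SE 0.81, limma adjusted p 1.70e-06), against medium-treated arrays of which 3 of 4 were not well above background. Without the fourth, replicate 4, it was 7.79, and with normexp 3.65. In MK2-/- BMDM, where no medium-treated array was, Saa2 was at least 24.4-fold higher after LPS (limma adjusted p 2.65e-06). In MK2/3-/- BMDM, with 3 of 4 LPS-treated arrays well above background, the same calculation gave 1.92-fold, which is no strict bound. The fitted response was 2.08 (SE 0.81, limma adjusted p 0.0407). That last call was not stable. The adjusted p was 0.177 with normexp, 0.109 with array weights and 0.0509 when the fit held these 2 groups alone. It lay between 0.0710 and 0.114 when LPS-treated MK2/3-/- replicate 2, 3 or 4 or any of the 3 medium-treated arrays of that genotype was left out.

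Saa3 was among the brightest probes, with ranks from 4 to 1167 of 55681 in LPS-treated arrays. Its log2 signal was 18.63, 18.23 and 17.43 in LPS-treated wt arrays, 18.21, 18.56, 18.23 and 17.32 in MK2-/- and 15.86, 17.00, 17.22 and 15.36 in MK2/3-/- arrays. In medium it was 9.31, 10.16, 12.05 and 15.32 in wt, between 10.13 and 10.85 in MK2-/-, and 10.01, 8.32 and 7.70 in MK2/3-/- BMDM. After LPS, MK2/3-/- arrays lay below all wt and all MK2-/- arrays, and MK2-/- and wt overlapped almost fully. The LPS response was 6.39 in wt (SE 0.95, limma adjusted p 2.34e-05), 7.54 in MK2-/- (SE 0.88, adjusted p 7.75e-07) and 7.69 in MK2/3-/- BMDM (SE 0.95, adjusted p 1.61e-06). It was 7.59 in wt without medium-treated replicate 4, 5.59 without replicate 1 of that group, and 8.35 in MK2/3-/- without medium-treated replicate 1. After LPS, Saa3 differed from wt by -0.02 (SE 0.95) in MK2-/- and by -1.73 (SE 0.95) in MK2/3-/- BMDM. The response in MK2/3-/- was not smaller than in wt, and the mean Saa3 signal of MK2/3-/- BMDM in medium was lower too, though not called. In medium it differed from wt by -3.03 (SE 0.95, limma adjusted p 0.102). That difference was called with 75th percentile scaling (-3.02, adjusted p 0.0256) and with array weights (-3.72, adjusted p 0.0179), and was -1.83 (adjusted p 0.178) without medium-treated wt replicate 4.

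Saa4, which lies between Saa3 and Saa1 and encodes the serum amyloid A that the liver makes constitutively, did not pass the test in wt, with a response of 0.47 (SE 0.30, limma adjusted p 0.240). It was well above background on all 22 arrays. Its difference between LPS-treated MK2/3-/- and wt BMDM was -0.20 (limma adjusted p 0.673).

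Lipocalin 2, encoded by Lcn2 (NM_008491), binds bacterial siderophores such as enterobactin and so keeps iron from bacteria. Its log2 signal was 16.30, 16.30 and 15.69 in LPS-treated wt arrays, 14.87, 15.87, 15.81 and 15.36 in MK2-/- and 13.14, 14.18, 15.40 and 13.52 in MK2/3-/- arrays. In medium it was 8.43, 8.77, 9.61 and 11.64 in wt, and between 9.17 and 9.99 in the knockouts. MK2/3-/- arrays lay below all wt arrays after LPS and overlapped with MK2-/- arrays through replicate 3. Lcn2 rose by 6.48 in wt (SE 0.58, limma adjusted p 5.85e-08), by 5.98 in MK2-/- (SE 0.54, adjusted p 2.90e-08) and by 4.72 in MK2/3-/- BMDM (SE 0.58, adjusted p 1.67e-06). Without medium-treated wt replicate 4 the rise in wt was 7.16. The difference from wt after LPS was -0.62 (SE 0.58, 1.54-fold) in MK2-/- and -2.04 (SE 0.58, 4.10-fold) in MK2/3-/- BMDM. The promoter of Lcn2, on the minus strand at chr2:32387690-32387989 (RefSeq, GRCm38.p6), is shown for comparison with the serum amyloid A promoters, with its C/EBP match in capitals.
Lcn2: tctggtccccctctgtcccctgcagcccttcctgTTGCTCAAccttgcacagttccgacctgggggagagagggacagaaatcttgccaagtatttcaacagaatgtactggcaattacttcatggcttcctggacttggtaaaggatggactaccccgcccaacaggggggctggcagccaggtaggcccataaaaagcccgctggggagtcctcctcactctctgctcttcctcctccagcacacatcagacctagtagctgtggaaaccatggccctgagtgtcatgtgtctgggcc

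Steap4 (NM_054098) encodes a membrane metalloreductase that reduces iron and copper before their uptake. It was not well above background on any of the 11 medium-treated arrays. After LPS its log2 signal was 8.84, 8.09 and 7.36 in wt, 5.41, 6.48, 5.53 and 6.36 in MK2-/-, and 2.73, 4.51, 4.47 and 6.51 in MK2/3-/- BMDM, of which the first 2 were not well above background. All knockout arrays lay below all wt arrays, and both knockouts overlapped. Steap4 was at least 20.0-fold higher after LPS in wt (limma adjusted p 8.17e-08) and at least 5.44-fold in MK2-/- BMDM (adjusted p 3.72e-06). In MK2/3-/- BMDM the same calculation gave 2.70-fold (adjusted p 7.05e-04). That is no strict bound, since only 2 of 4 LPS-treated arrays were well above background. With measured means the responses were 5.96, 3.87 and 2.57 on the log2 scale. The difference from wt after LPS was -2.15 (SE 0.55, 4.45-fold) in MK2-/- and -3.54 (SE 0.55, 11.7-fold) in MK2/3-/- BMDM. With normexp these were -1.40 and -1.82. Without LPS-treated MK2/3-/- replicate 1 the second was -2.93 and without replicate 4 of that group -4.19. The promoter of Steap4, on the plus strand at chr5:7960222-7960521 (RefSeq, GRCm38.p6), is shown because it held matches to all 3 motifs searched, in capitals: the NF-κB consensus (κB motif), the C/EBP motif and the STAT motif TTCNNNGAA.
Steap4: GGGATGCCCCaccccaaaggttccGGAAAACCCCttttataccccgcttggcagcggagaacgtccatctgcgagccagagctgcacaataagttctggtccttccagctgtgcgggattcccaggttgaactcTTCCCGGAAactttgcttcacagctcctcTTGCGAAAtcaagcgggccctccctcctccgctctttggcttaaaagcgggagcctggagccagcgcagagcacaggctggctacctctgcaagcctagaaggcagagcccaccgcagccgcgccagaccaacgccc

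Haptoglobin, encoded by Hp (NM_017370), binds free haemoglobin and so limits the iron open to bacteria. Its log2 signal was 12.74, 11.87 and 10.57 in LPS-treated wt arrays, 10.39, 10.87, 9.60 and 9.53 in MK2-/- and 8.01, 8.68, 7.66 and 9.45 in MK2/3-/- arrays. In medium it ranged from 7.06 to 8.70 in wt, from 6.00 to 8.09 in MK2-/- and from 6.93 to 7.45 in MK2/3-/- BMDM. After LPS, MK2/3-/- arrays lay below all arrays of both other genotypes. Hp rose by 3.92 in wt (SE 0.56, limma adjusted p 1.39e-05) and by 3.26 in MK2-/- BMDM (SE 0.52, adjusted p 3.15e-05). In MK2/3-/- BMDM its response was 1.22 (SE 0.56, limma adjusted p 0.0785), although no LPS-treated array fell to the level of a medium-treated one. Without LPS-treated MK2/3-/- replicate 3 it was 1.49 (adjusted p 0.0457). The difference from wt after LPS was -1.63 (SE 0.56) in MK2-/- and -3.28 (SE 0.56, 9.68-fold) in MK2/3-/- BMDM.

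Pentraxin 3, encoded by Ptx3 (NM_008987), is a soluble pattern recognition molecule that binds microbes and complement. Its log2 signal was 11.57, 10.14 and 9.52 in LPS-treated wt arrays, 9.83, 10.57, 9.45 and 9.99 in MK2-/- and 7.99, 8.95, 7.81 and 9.69 in MK2/3-/- arrays. In medium, 2 of 4 wt arrays (6.50 and 6.85), no MK2-/- array and 1 of 3 MK2/3-/- arrays (4.95) were well above background. All LPS-treated arrays exceeded the medium-treated ones of their genotype, and after LPS the genotypes overlapped. Ptx3 rose by 5.54 in wt (SE 0.99, limma adjusted p 1.77e-04) and by 5.64 in MK2/3-/- BMDM (SE 0.99, adjusted p 1.01e-04), and was at least 68.9-fold higher in MK2-/- BMDM (adjusted p 4.18e-06). The rise in wt was 4.58 without medium-treated replicate 2 and 6.19 without replicate 4, that in MK2/3-/- was 6.63 without medium-treated replicate 3, and normexp gave 3.60 and 2.50 for wt and MK2/3-/- BMDM. After LPS the difference from wt was -0.45 (SE 0.99) in MK2-/- and -1.80 (SE 0.99) in MK2/3-/- BMDM.

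Slpi (NM_011414) encodes a secreted inhibitor of neutrophil elastase and related proteases, and it did not follow the other genes. Its log2 signal was 12.46, 12.15 and 10.62 in LPS-treated wt arrays, 10.07, 11.35, 12.57 and 11.23 in MK2-/- and 9.92, 8.92, 11.48 and 10.39 in MK2/3-/- arrays. In medium it was 9.59, 8.71, 11.86 and 9.66 in wt, 8.57, 9.20, 12.85 and 10.53 in MK2-/- and 9.83, 8.55 and 9.00 in MK2/3-/- BMDM. Treatments overlapped within each genotype, and genotypes overlapped within each treatment. The response was 1.79 in wt (SE 0.90, limma adjusted p 0.12), 1.02 in MK2-/- (SE 0.83, adjusted p 0.353) and 1.05 in MK2/3-/- BMDM (SE 0.90, adjusted p 0.368). Without medium-treated wt replicate 3 the response in wt was 2.43 (adjusted p 0.0389), and without medium-treated MK2-/- replicate 3 that in MK2-/- was 1.87 (adjusted p 0.0546). With the letter in the authors' array names as a random block, limma's adjusted p was 0.0929 in wt, 0.286 in MK2-/- and 0.341 in MK2/3-/- BMDM. That fit used 1 correlation of 0.14 shared by all genes, not a value fitted to Slpi, so it need not remove the letter's part in Slpi. The high arrays of Slpi shared 1 such letter, c. In 4 of 5 groups that held an array with that letter, it was the highest, as it was for 2.9% of all genes in at least 4 groups and for each other member in at most 1 group. Letter c was looked at because Slpi was high on its arrays, and the share counts that letter alone. How unusual Slpi is cannot be read from that share. Between arrays of the same genotype and letter, Slpi was higher after LPS in 9 of 10 pairs, by -0.28 to 2.87 over all pairs. What the letter stands for is not given in the sources used here, and its part in the values of Slpi was not tested.

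**Figure D2:**
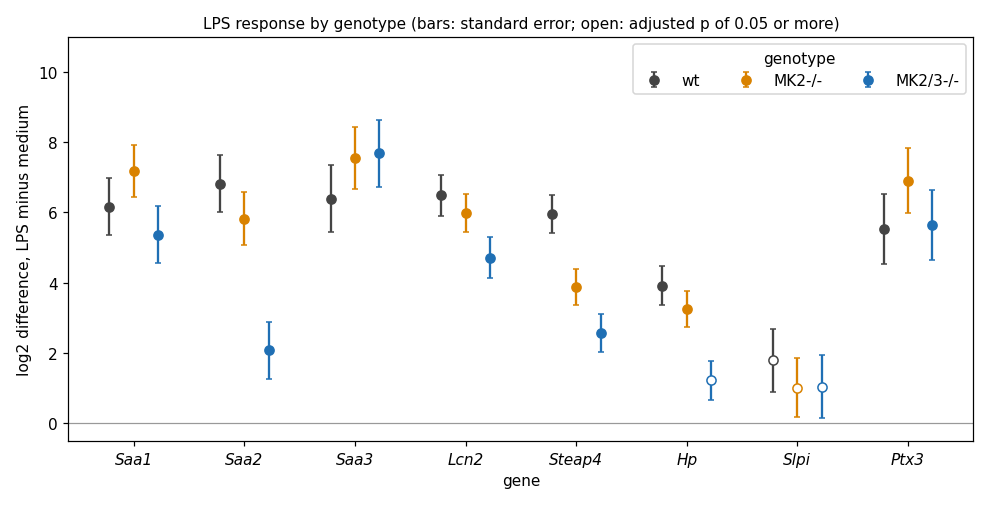
Log2 difference between LPS and medium (vertical axis) for each of the 8 genes in wt, MK2-/- and MK2/3-/- BMDM, with bars for the standard error and open circles for an adjusted p of 0.05 or more. In MK2/3-/- BMDM the points of Saa2 (2.08) and Steap4 (2.57) are differences from medium-treated arrays that were not well above background and have no order with the others. That of Hp lies at 1.22, and that of Saa3 (7.69) was not below the value in wt (6.39). Ptx3 stood at 5.64, and at 5.54 in wt. In medium it was well above background on 2 of 4 wt and 1 of 3 MK2/3-/- arrays. Its response in MK2/3-/- was below that in wt in 11 of 34 alternative fits, so these have no clear order.

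The 8 genes thus differed among themselves in how far they were lower in each knockout. In MK2/3-/- BMDM after LPS, Saa2, Steap4 and Hp were between -5.74 and -3.28 from wt, and the other 5 genes between -2.04 and -1.57. With normexp Steap4 (-1.82) lay among the other genes, between Lcn2 (-2.04) and Saa1 (-1.77). In MK2-/- BMDM the same 3 genes had the largest differences, -1.69, -2.15 and -1.63, and the other 5 lay between -0.62 and -0.02. The values for Saa1, Saa3 and Ptx3 in MK2-/- BMDM turned positive in 3, 6 and 2 of 34 alternative fits, and those of the other 5 genes stayed below 0 in all 34. Both comparisons share the LPS-treated wt arrays. In MK2/3-/- against wt after LPS 14.0% of all genes were called lower and 9.61% higher, and nothing is read from these shares for the 8 genes, since that contrast chose them. The difference of the LPS response between MK2/3-/- and wt had a median of -1.28 over the 8 genes and ranged from -4.74 for Saa2 to 1.30 for Saa3. The value of Saa2 rests on medium-treated arrays of which 1 of 7 was well above background, and was -3.15 with normexp. Without medium-treated wt replicate 4 that median was -2.14, and Saa3 stood at 0.10.

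**Figure D3:**
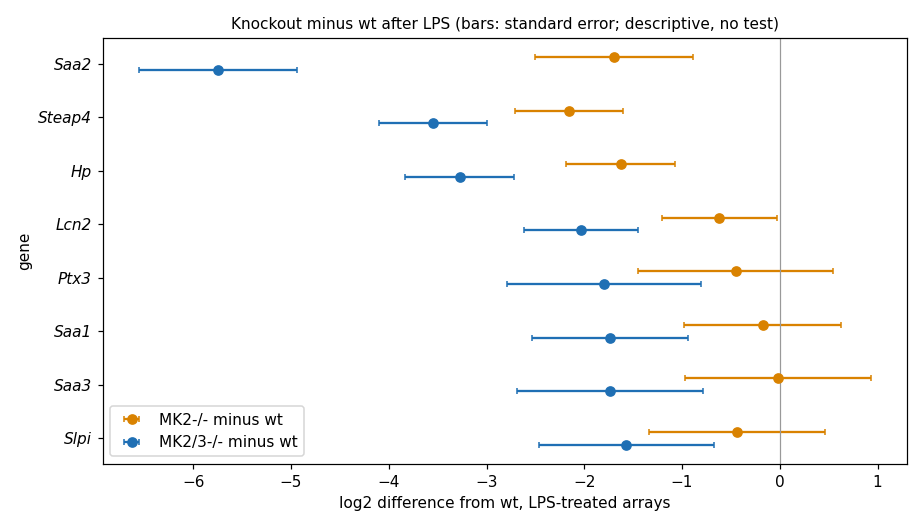
Log2 difference of LPS-treated MK2-/- and MK2/3-/- BMDM from LPS-treated wt BMDM (horizontal axis) for each of the 8 genes, with bars for the standard error. All points for MK2/3-/- lie at -1.57 or below, and those for MK2-/- between -2.15 and -0.02.

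In medium, none of the 8 genes was called between MK2-/- and wt (8.82% of all genes called in either direction), between MK2/3-/- and wt (2.02%) or between MK2/3-/- and MK2-/- BMDM (2.82%) in limma with Benjamini-Hochberg adjustment. At an unadjusted limma p under 0.05 only Saa3 between MK2/3-/- and wt passed (0.00486), and the methods' t-test, unadjusted, called 0, 0 and 1. The 8 differences from wt ranged from -1.83 to 0.33 in MK2-/- and from -3.03 to -0.16 in MK2/3-/- BMDM. The value of -1.83 was that of Ptx3 (limma adjusted p 0.219). Its arrays overlapped there, with 2 of 4 wt and no MK2-/- arrays well above background. Medium-treated wt replicate 4 was the highest wt array in medium for all 8 genes but Slpi.

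Within groups, arrays that were high in 1 serum amyloid A gene tended to be high in the others, with lower correlations for Saa2. Over 22 arrays, deviations from the group means of Saa1 correlated with those of Saa3 at r = 0.95, of Lcn2 at r = 0.86 and of Saa2 at r = 0.79, and without medium-treated wt replicate 4 these were 0.91, 0.74 and 0.61. Steap4 had low correlations with Saa1 (r = 0.06) and Saa3 (r = 0.08) and correlated with Hp at 0.54 and Saa2 at 0.50. However, Steap4 was not well above background on any medium-treated array, and Saa2 only on medium-treated wt replicate 4. Many of their deviations are thus those of values near the floor, which have no order, and nothing is read from these values of Steap4. Values of 1 array share its RNA sample and its normalisation.

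**Figure D4:**
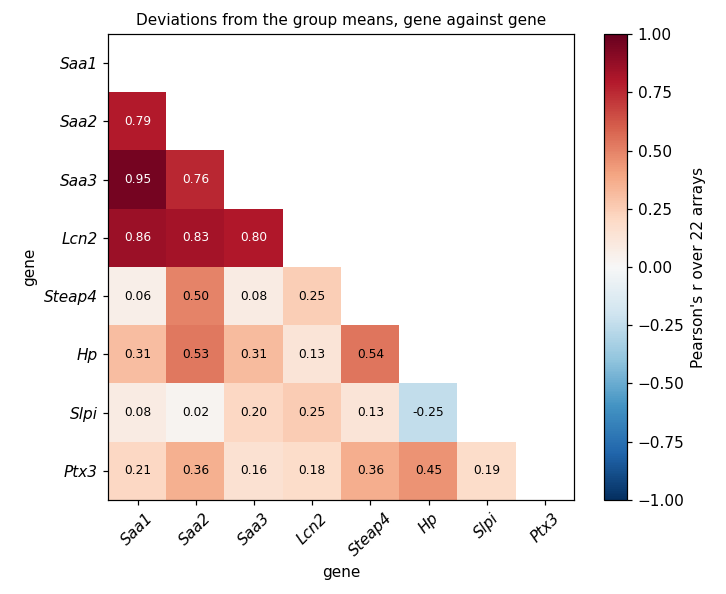
Pearson correlation over 22 arrays between the deviations of each pair of genes from their group means, coloured from -1 to 1. Saa1, Saa2, Saa3 and Lcn2 form a block of values from 0.76 to 0.95, and Slpi lies between -0.25 and 0.25 with each other gene. Without medium-treated wt replicate 4 the block ranged from 0.55 (Saa2 with Saa3) to 0.91 (Saa1 with Saa3). Saa2 with Steap4, outside the block, was then also 0.55. Saa2 and Steap4 were mostly not well above background in medium, so their correlations rest in part on values near the floor.

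Genes most like the mean pattern of the 8 genes, by Pearson correlation over 22 arrays among 17512 named genes with complete values, were Il19 (0.98), Pfkfb3 (0.97), Csf3 (0.97), Dgat2 (0.97) and Urah (0.97). Csf3 encodes the granulocyte growth factor G-CSF, and Pfkfb3 an enzyme that drives glycolysis. In wt BMDM their LPS responses were 6.50, 5.05, 7.0, 3.44 and 4.13 on the log2 scale in that order, and all 5 had a negative difference between LPS-treated MK2/3-/- and wt BMDM, from -2.95 to -2.09, a direction that the choice by likeness favours. Of the 8 genes, Lcn2 was most like the mean of the other 7 (r = 0.96) and Slpi least (r = 0.53).

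The promoter windows of 7 of the 8 genes were listed by RefSeq, and Hp was not among them. On either strand, all 7 held the C/EBP motif TTGCNNAA, which 10.8% of 32851 mouse promoters of the same length hold, and which 12.5% of 895 promoters of 706 other genes that rose over 4-fold with LPS in wt hold. The match was TTGCACAA in Saa1 and Saa2, TTGCTCAA in Lcn2 and TTGCGAAA in Steap4. In Saa3, Slpi and Ptx3 the motif lay on the other strand. Read along the gene, these matches are TTATGCAA in Saa3, TTGAGCAA in Slpi and TTGTGCAA in Ptx3, which fit the reverse complement of the motif. The κB motif was matched in Steap4 and Ptx3 (8.46% of all promoters) and the STAT motif TTCNNNGAA in Steap4 (8.3% of all promoters). The 3 motifs did not overlap each other in these windows. The motifs were picked with the genes known, and a match is a run of letters, not a site shown to be bound.

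The other genes of the pathway were 74 genes in 5 lists, of which 70 were tested. Upon LPS treatment of wt BMDM 33 of them rose and 10 fell, compared with 18.6% and 23.5% of all genes. After LPS, 6 were higher and 8 lower in MK2/3-/- than in wt BMDM, beside 9.61% and 14.0% of all genes, and 17 higher and 9 lower under 75th percentile scaling, which shifted the median of all genes from -0.02 to 0.15. The median of the 70 genes was 0.06. Il6 and Il1a, which encode inducers of acute-phase genes, had the largest LPS responses in wt among the 14 inducers and receptors, of which 7 rose and 3 fell. Neither was called between LPS-treated genotypes. Il6 rose by 8.11 in wt (SE 0.94, limma adjusted p 1.35e-06) with a difference of 0.32 in LPS-treated MK2/3-/- BMDM (adjusted p 0.841), and Il1a rose by 8.12 (SE 0.84, adjusted p 2.99e-07) with a difference of 0.32 (adjusted p 0.820).

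Among 14 inducers and receptors, 3 were lower and 1 was higher in LPS-treated MK2/3-/- than in wt BMDM, beside 14.0% and 9.61% of all genes. The interleukin-1 receptor Il1r1 differed by -3.29 (SE 0.78, limma adjusted p 0.00584, well above background on 14 arrays), the interleukin-6 receptor Il6ra by -1.70 (SE 0.33, adjusted p 0.00144) and its signalling partner Il6st by -1.23 (SE 0.41, adjusted p 0.0378). The call for Il6st was lost without LPS-treated wt replicate 1 (-0.84, adjusted p 0.206) or 3 (0.0649). It was also lost without LPS-treated MK2/3-/- replicate 1 (0.0653) or 3 (0.108), with array weights (0.0703) and with only the groups compared (0.144). The cytokine Osm was higher by 0.88 (SE 0.22, adjusted p 0.00735). Of 9 transcription factors and feedback genes, 2 were lower, both C/EBP factors, beside the same 14.0% of all genes. Cebpd was lower by -2.25 (SE 0.33, limma adjusted p 1.66e-04) and Cebpb by -1.10 (SE 0.26, adjusted p 0.00482), whereas Cebpa, which fell by 5.18 with LPS in wt (adjusted p 1.04e-09), and the cytokine signalling inhibitor Socs3, which rose by 6.69 (adjusted p 1.56e-08), differed by -0.21 and -0.61 (adjusted p 0.681 and 0.446).

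The LPS response itself differed between MK2/3-/- and wt BMDM for 2 of the 70 genes, both with a smaller response, compared with 0.572% of all genes. Cebpd rose by 2.87 in wt (SE 0.33, limma adjusted p 1.02e-06) and had a response of 0.28 in MK2/3-/- BMDM (adjusted p 0.520), a difference of -2.59 (SE 0.46, limma adjusted p 0.0229). Tlr2, the receptor of bacterial lipoproteins, rose by 1.16 in wt (SE 0.23, adjusted p 4.58e-04) and fell by 0.83 in MK2/3-/- BMDM (adjusted p 0.00558), a difference of -1.99 (SE 0.32, adjusted p 0.0173). The call for Cebpd was lost without medium-treated MK2/3-/- replicate 1 (adjusted p 0.0674) or replicate 2 (0.0756) and with 75th percentile scaling (0.0667), and that for Tlr2 without replicate 2 (0.0633). Both had an adjusted p of 0.0554 when the fit held only the groups compared.

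Of 19 tested acute-phase genes outside the 8, 9 rose with LPS in wt and 1 fell, and after LPS 1 was lower and 1 higher in MK2/3-/- than in wt BMDM, where 18.6%, 23.5%, 14.0% and 9.61% of all genes were called in the same comparisons and directions. Hamp, which encodes the iron hormone hepcidin, rose by 6.20 in wt (SE 0.70, limma adjusted p 1.04e-06) and the interleukin-1 antagonist Il1rn by 6.57 (SE 0.57, adjusted p 3.64e-08), and neither was called between LPS-treated MK2/3-/- and wt BMDM (-0.29 and 0.03, adjusted p 0.808 and 0.980). Orm1, an orosomucoid with a near-identical relative, was lower by -1.48 (SE 0.45, adjusted p 0.0225) but was well above background on 6 arrays, and the fibrinogen chain Fga was higher by 0.98 (SE 0.26, adjusted p 0.0114). The call of Orm1 was lost in 7 of 33 alternative fits, among them 75th percentile scaling (-0.69, adjusted p 0.320), normexp (-0.28, 0.106) and leaving out LPS-treated wt replicate 1 (0.0604) or 3 (0.121) or LPS-treated MK2/3-/- replicate 2 (0.0558) or 4 (0.0567).

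Of 11 tested receptors for proteins of the 8 genes, 1 was lower and 2 were higher in LPS-treated MK2/3-/- than in wt BMDM, beside 14.0% and 9.61% of all genes. Tlr2 was lower by -1.90 (SE 0.23, limma adjusted p 5.12e-05). The lipocalin 2 receptor Slc22a17 was higher by 1.15 (SE 0.21, adjusted p 0.00113), and Lrp2, a large endocytic receptor, by 1.68 (SE 0.55, adjusted p 0.0325, well above background on 12 arrays). The call for Lrp2 was lost without LPS-treated wt replicate 2 (0.96, adjusted p 0.208) or 3 (0.0646). It was also lost without LPS-treated MK2/3-/- replicate 1 (0.0509), 3 (0.0633) or 4 (0.058) and with only the groups compared (0.116). Fpr2, through which serum amyloid A attracts leukocytes, rose by 6.68 in wt (SE 0.63, adjusted p 9.33e-08), and its relative Fpr1 by 5.85 (SE 0.67, adjusted p 1.21e-06). Among 17 relatives of the 8 genes, Wfdc21 and Wfdc18, which share the protease-inhibitor fold of Slpi, rose by 3.41 (SE 0.60, adjusted p 1.52e-04) and 3.11 (SE 0.59, adjusted p 3.32e-04) in wt. After LPS Wfdc21 was lower in MK2/3-/- than in wt by -2.08 (SE 0.60, adjusted p 0.0188), and Wfdc1 and the lipocalin Apod were higher by 1.58 (SE 0.28, adjusted p 8.45e-04) and 1.06 (SE 0.22, adjusted p 0.00246). Apod was also higher in medium, by 1.14 (adjusted p 0.0183). Without LPS-treated wt replicate 1 the value for Wfdc21 was -1.48 (adjusted p 0.125), and with 75th percentile scaling -1.56 (adjusted p 0.0644).

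**Figure D5:**
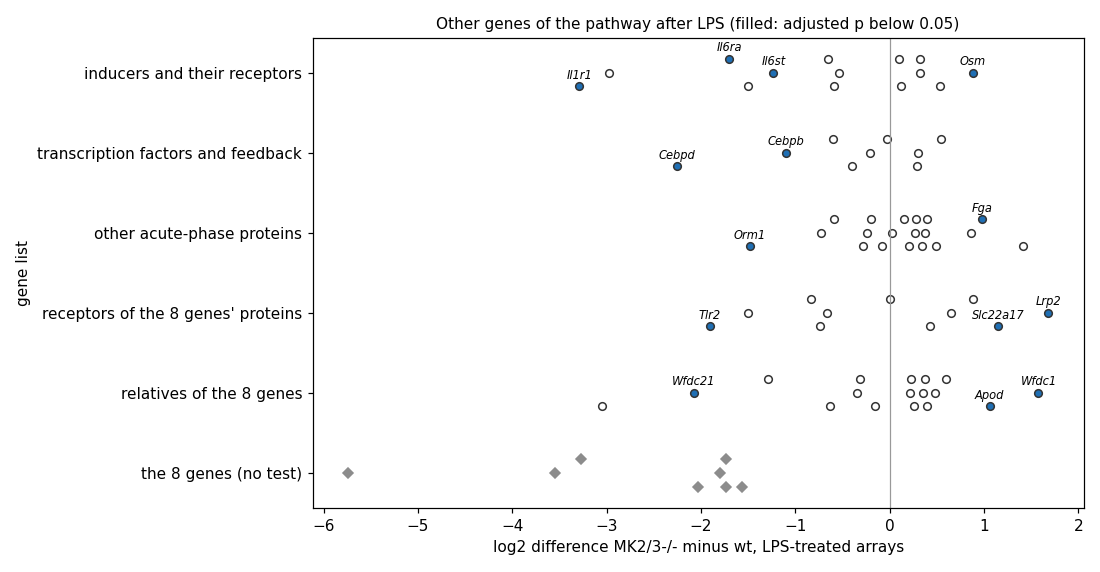
Log2 difference between LPS-treated MK2/3-/- and wt BMDM (horizontal axis) for the 70 tested genes of 5 pathway lists, filled where the adjusted p was below 0.05, with the 8 genes as grey diamonds without a test. The 14 called genes lie on both sides of 0, from -3.29 for Il1r1 to 1.68 for Lrp2.

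Lcn2, Slpi and Hp are also products of neutrophils, so markers of that cell type are given beside them. Of 16 neutrophil markers 14 were tested. Between LPS-treated MK2/3-/- and wt BMDM, where 14.0% of all genes were lower and 9.61% higher, 1 of these was lower and none was higher. This was S100a8, an iron- and calcium-binding protein that activated macrophages also make, with a difference of -3.11 (SE 0.80, limma adjusted p 0.00943) and a rise of 3.72 with LPS in wt (SE 0.80, adjusted p 9.86e-04). The call of that difference was lost with array weights (-2.31, adjusted p 0.058) and with only the groups compared (0.0614). Mmp9 rose by 1.56 in wt (SE 0.47, adjusted p 0.0121). The summed linear signal of the markers ranged from 29190 to 46970 in LPS-treated wt, from 25700 to 43560 in MK2-/- and from 26300 to 42380 in MK2/3-/- arrays, so the genotypes overlapped. Elane, Camp and Ltf were among the neutrophil markers well above background on all 22 arrays. Mpo was so on 21 arrays, Ngp on 19, Cxcr2 and Mmp9 on 16, Prtn3 on 11 and Retnlg on 1. Their part in the values of the 8 genes was not tested. Macrophage markers summed to between 251000 and 338500 in LPS-treated wt and between 315800 and 341200 in MK2/3-/- arrays, with 0 of 7 called between these groups. With LPS in wt, 4 of these 7 fell and 1 rose, compared with 23.5% and 18.6% of all genes. Among them Lyz2, the lysozyme of myeloid cells, fell by 1.80 (SE 0.28, limma adjusted p 4.17e-05). Of 10 tested markers of other blood and stromal cells, 4 rose and 1 fell with LPS in wt, compared with 18.6% and 23.5% of all genes. Zbtb46, a dendritic cell factor, and Pecam1, an endothelial adhesion molecule, rose with LPS in wt by 3.71 (SE 0.35, adjusted p 1.10e-07) and 0.96 (SE 0.25, adjusted p 0.00403). In the authors' table, from whose values the probe was chosen again, the value for Zbtb46 was -0.27 (limma adjusted p 0.806). The summed signal of that list was between 71270 and 132500 in LPS-treated wt and between 72790 and 91390 in MK2/3-/- arrays. Of the 2 tested hepatocyte markers Apob rose by 0.79 with LPS in wt (SE 0.26, adjusted p 0.0197), a call lost with normexp (0.31, 0.103) and without LPS-treated wt replicate 2 (0.0590) or 3 (0.0712) or medium-treated wt replicate 3 (0.0653).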

How the data were processed

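RNA of 22 samples was hybridised to Agilent one-colour mouse arrays. The authors deposited the scanner output, with Feature Extraction (version 11.0.1.1) processed signal intensities, and a table of log2 values that they quantile normalised and centred on each probe's median, which was used as an alternative. Groups were taken from the sample labels.

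Control spots were left out and spots marked as outliers set to missing. The deposited processed intensities were log2 transformed and quantile normalised over all arrays, and spots of a probe were averaged. The lowest values of this scale are a floor and have no order. Of 55681 probes, only those with an NCBI accession that rose well above background on 3 or more arrays entered the fit, each gene being represented by its probe of highest mean signal (22383 genes). Symbols came from RefSeq. A mean per group was fitted with limma 3.58.1 (R 4.3.3, data.table, version 1.17.8), with eBayes and Benjamini-Hochberg adjustment over all genes at 0.05. The fit was tested on simulated data. Where no array of the dimmer group was well above background, a bound (at least N-fold) was computed from the lowest signal well above background on each array. The brighter group kept its measured mean, so the bound is strict only where all its arrays were well above background.

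The 8 genes, gene lists, markers and motifs were chosen with earlier results of these data known. Of each list, up to 4 genes called with the largest difference between LPS-treated MK2/3-/- and wt BMDM and up to 2 called with the largest LPS response in wt were named, as were the 5 genes most like the mean z score of the 8 genes. Saa4, given for its position, and uncalled comparisons of named genes, were chosen after their values were seen. Alternatives were 75th percentile scaling, normexp with an offset of 50, the authors' table, outlier spots kept, no or a stricter filter, other probe choices, only the groups compared, array weights, the methods' t-test, blocks and leaving out each array. The number of arrays limits the precision. Results for some marker genes are not reported here.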

Additional observations from a re-analysis of the deposited data

Results flagged for a closer look

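Of 32 groups of 4 arrays examined for the 8 genes, 4 held an array that stood far from the others, by a test that marks some groups by chance alone (about 5 in 100). Saa2 was highest in medium-treated wt replicate 4, at 5.90 on the log2 scale, with a gap to the next array of 0.985 of the range of the group. Steap4 was highest in the same array, at 2.52 (0.889 of the range), where it was not well above background. Saa2 in medium-treated MK2-/- replicate 1 (3.12, 0.963 of the range) and Steap4 in medium-treated MK2-/- replicate 2 (2.21, 0.891 of the range) were also highest and not well above background. Values near the floor of the scale have no order, so nothing is read from these last 3.

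The LPS response differed between MK2/3-/- and wt BMDM for Cebpd, by -2.59 on the log2 scale (limma adjusted p 0.0229), and for Tlr2, by -1.99 (limma adjusted p 0.0173), in a test of the difference itself.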

How the results depend on the processing

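Over 36 alternatives, 7 to 8 of the 8 genes were called after LPS in wt, 7 in MK2-/- and 4 to 6 in MK2/3-/- BMDM. Over 34 alternatives the median difference under LPS kept its sign, from -0.95 to -0.30 for MK2-/- against wt, from -2.25 to -1.66 for MK2/3-/- against wt and from -1.69 to -1.26 for MK2/3-/- against MK2-/-. The choice of the genes favoured a negative sign, and these fits share the arrays that chose them, so nothing is read from the sign. In medium, 1 gene (Saa3) was called between MK2/3-/- and wt with 75th percentile scaling and 1 with array weights, and 1 between MK2/3-/- and MK2-/- by the methods' t-test, unadjusted. The median difference of the LPS response was -1.28 and ranged from -2.14 to -0.94 when an array was left out, with -2.14 without medium-treated wt replicate 4. The count of other pathway genes between LPS-treated MK2/3-/- and wt BMDM was 14, 11 to 17 when an array was left out, 26 with 75th percentile scaling, 6 with only the groups compared and 1 by the methods' t-test after adjustment. 75th percentile scaling moved the median LPS response of all genes in wt from -0.04 to 0.30. Zbtb46 had an LPS response of -0.27 (limma adjusted p 0.806) in the authors' table. The probe of each gene was chosen again from the values of that table, so the value may come from another probe. The cause was not tested. Of pairs with the same replicate number, 7 of 10 had deviations correlated above 0.1 (-0.09 to 0.36). So did 7 of 10 pairs with the same letter (-0.09 to 0.42) and 5 of 30 with unlike letters (-0.33 to 0.26). Same-letter pairs were thus above 0.1 more often than unlike-letter pairs. The main fit left the samples unpaired, and the number and the letter each served as a block in an alternative fit. The replicate block (correlation 0.12) left the counts of the 8 genes at 7, 7 and 6 and the pathway count at 14, with a median difference of -0.61 between LPS-treated MK2-/- and wt BMDM, and neither it nor the letter block changed a call of the 8 genes. Signals near background limit Saa2 and Steap4 in medium and in MK2/3-/- BMDM.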
